A study of Rattus norvegicus with 18 samples.

Results

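Cathepsins are the main proteases of the lysosome, the acidic compartment in which cells digest proteins. The 8 cathepsin genes described here were *Ctsb*, *Ctsc*, *Ctsd*, *Ctse*, *Ctsh*, *Ctsl*, *Ctss* and *Ctsz*, and each was found in 1 row of each table of 32882 genes. They were chosen by gene name, with their KO against control values and their control levels in these libraries already known, and the values of the members are therefore given as a description without p values.

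The libraries came from rat TMBP cells, CD4+ T cells of the Lewis rat that recognize myelin basic protein and cause experimental autoimmune encephalomyelitis after transfer. Cells edited with a guide against *Ets1* or *Grk2* (KO, expressing EGFP) were injected together with cells edited with a non-targeting guide (control, expressing BFP) and were sorted on day 3. RNA was sequenced from *Ets1*-KO and control cells of the spinal cord parenchyma, from *Ets1*-KO and control cells of the spleen, and from *Grk2*-KO and control cells of the spleen, with 3 libraries in each of the 6 groups. All cells had been expanded and restimulated with antigen in culture before transfer, and the KO cells were edited populations and not clones. KO and control libraries of 1 number were taken to share an animal because the cells were transferred together. The labels only number the libraries, and they do not say how many animals a library holds.

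Cathepsins are made as inactive proenzymes that are activated at acidic pH, and most are sorted to lysosomes, largely by mannose 6-phosphate receptors. *Ctsb*, *Ctsc*, *Ctsh*, *Ctsl*, *Ctss* and *Ctsz* encode cysteine proteases, which cystatins inhibit, and *Ctsd* and *Ctse* encode aspartic proteases. In antigen-presenting cells several of them process antigen and the invariant chain for MHC class II, and in cytotoxic lymphocytes cathepsin C activates the serine proteases of the granules.

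Each library held between 898092 and 2248258 reads on genes. In the spleen *Ets1* table all KO libraries (1909862 to 2248258 reads) were deeper than all control libraries (898092 to 1213485 reads). *Ets1*-KO replicate 3 of the spleen stood apart, with a chi-square per gene of 9.23 and 8.95 against the other libraries of its group, whereas all other pairs within a group gave between 1.48 and 4.60. The 9 T cell marker genes found in the tables had reads in every library. In the parenchyma, control cells had 2400 ± 150 and *Ets1*-KO cells 2551 ± 183 normalized counts of *Ets1* mRNA, with 2077 ± 135 and 2000 ± 324 in that order in the spleen (SD, n = 3). Reads of 3′ ends do not show an edit elsewhere in the gene, so these values check nothing about the *Ets1* labels. *Grk2* was lower in all *Grk2*-KO libraries, at 68.3 ± 17.4 against 158 ± 14.1 normalized counts (SD, n = 3; limma, adjusted p = 1.76e-12).

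The members lie on 7 chromosomes of Rnor_6.0, with *Ctsc* and *Ctsd* both on chromosome 1, and none overlaps another annotated gene. *Ctsb* (ENSRNOG00000010331) lies at chr15:46316740-46337612 on the plus strand, *Ctsd* (ENSRNOG00000020206) at chr1:215541541-215553451 on the minus strand, and *Ctse* (ENSRNOG00000006963) at chr13:48426819-48449490 on the plus strand. RefSeq promoter sequences of GRCr8 were matched by symbol for 7 of the 8 members. These were searched on both strands, from 250 bases before to 50 after the start. The motifs were the E-box CACGTG, part of the site of the lysosomal regulator TFEB, and CCGGAAG, a strict form of the ETS core. *Ctsd* was the only one of the 7 that held either string, and it held both. Other forms of ETS site around GGAA were not searched for, so no absence of such sites is claimed for the 7. Of all 33469 promoters, 6.42% held the E-box and 8.75% held CCGGAAG. The 250 bases before the start are shown for *Ctsd*, because of these matches, and for *Ctse*, whose counts differed most in *Ets1*-KO cells of the spleen. Capitals mark the motifs, and a match describes the letters of this window only. The first lies at chr1:206968822-206969071 on the minus strand and the second at chr13:45643965-45644214 on the plus strand.
Ctsd: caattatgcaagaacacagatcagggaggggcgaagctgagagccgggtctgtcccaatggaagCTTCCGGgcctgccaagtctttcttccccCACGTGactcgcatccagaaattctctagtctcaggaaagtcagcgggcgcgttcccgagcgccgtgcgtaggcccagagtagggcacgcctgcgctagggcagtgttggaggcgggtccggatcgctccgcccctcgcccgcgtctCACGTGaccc
Ctse: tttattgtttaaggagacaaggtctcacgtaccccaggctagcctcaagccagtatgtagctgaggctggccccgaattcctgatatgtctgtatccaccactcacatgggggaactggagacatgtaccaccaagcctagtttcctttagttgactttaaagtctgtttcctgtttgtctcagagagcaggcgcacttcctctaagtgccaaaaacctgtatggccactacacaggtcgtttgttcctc

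In control cells, *Ctsb* and *Ctsd* were the most abundant members in both tissues. Levels were set side by side as RPM, the reads of a gene scaled to 1000000 reads on genes, which were not divided by transcript length because reads came from 3′ ends, and no test was made because the tables were produced separately. *Ctsb*, an abundant endo- and exopeptidase of lysosomes, was at 342 ± 11.2 RPM in the parenchyma, 139 ± 16.2 in the spleen controls of the *Ets1* table and 92.2 ± 6.87 in those of the *Grk2* table (SD, n = 3). *Ctsd*, the major aspartic protease of lysosomes, was at 286 ± 14.2, 167 ± 34.3 and 113 ± 15.2 RPM in the same order. For both genes every parenchyma control library was above all 6 spleen control libraries.

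*Ctss*, a cysteine protease best known for its part in class II antigen presentation, was at 36.6 ± 3.92 RPM in the parenchyma, 11.9 ± 7.97 in the first spleen set and 25.1 ± 1.17 in the second (SD, n = 3), and it too was above all 6 spleen libraries in the parenchyma. *Ctsc* was at 26.6 ± 9.12, 8.19 ± 5.54 and 26.8 ± 1.52 RPM. The parenchyma and spleen controls overlapped for *Ctsc*, for *Ctsz* (14.9 ± 4.61, 17.7 ± 4.95 and 10.5 ± 6.15 RPM) and for *Ctse* (15.3 ± 4.12, 18.4 ± 1.24 and 27.6 ± 7.98 RPM). Genes were compared if they averaged 10 or more normalized counts in a control set, which left out *Ctsh* and *Ctsl*. Thus 3 of the 6 members compared were above all spleen libraries in the parenchyma, against 10.7% of the 7801 genes compared. The pair of spleen control sets themselves did not overlap for *Ctsb*, *Ctsc*, *Ctsd* and *Ctss*. They did not overlap for 59.0% of all genes compared, so that differences between sets were common within 1 tissue. Within the parenchyma the ranges of *Ctsb* and *Ctsd* did not overlap, whereas in both spleen sets they did, with *Ctsb* at 129 to 157 and 88.2 to 100.1 and *Ctsd* at 145 to 206 and 95.9 to 125 RPM.

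**Figure D1:**
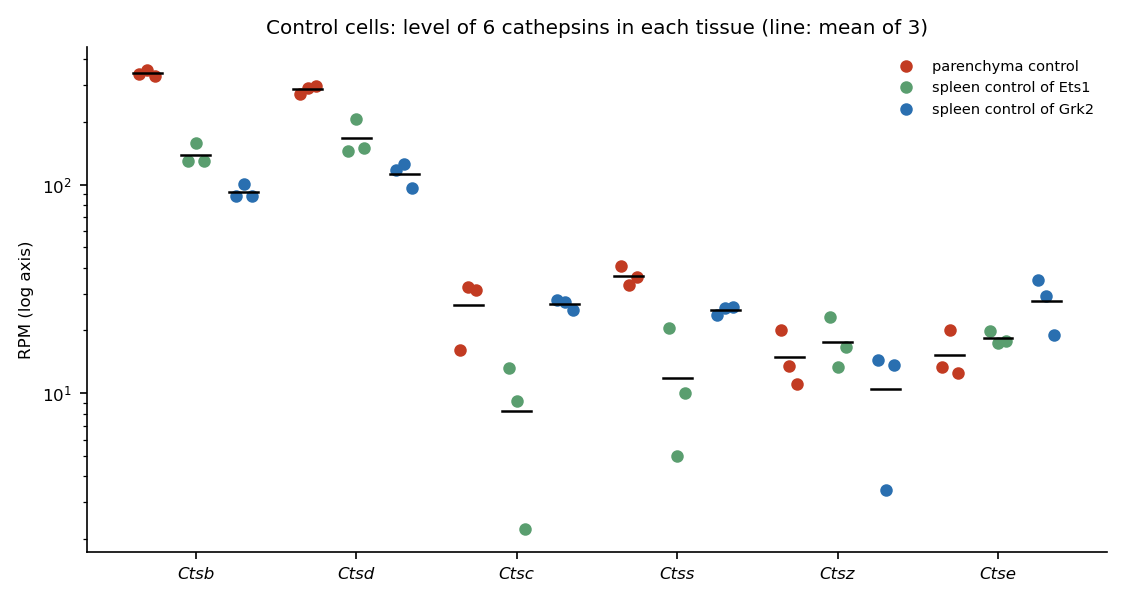
RPM, or reads per 1000000 (log axis), of 6 cathepsins in the 9 control libraries, with 1 point per library, a line at the mean of 3 and a colour for each control set. *Ctsb*, *Ctsd* and *Ctss* lie above all 6 spleen libraries in the parenchyma, and the other genes overlap.

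*Ctsh* and *Ctsl* were at the limit of detection. *Ctsh*, an aminopeptidase, had 1 read among the 25925531 reads of all 18 libraries, or 0.0386 RPM (95% exact binomial interval 0.000977 to 0.215). *Ctsl*, an endopeptidase, had 23 reads in 11 libraries, or 0.887 RPM (0.562 to 1.33). Of these, 8 were in *Grk2*-KO and 8 in the matching control libraries, 3 in each parenchyma group, 1 in *Ets1*-KO cells of the spleen and 0 of 3312721 reads in their controls, which allows up to 0.906 RPM by the limit of 3 reads used for a count of 0, and up to 1.11 RPM by the exact interval. Intervals and limits cover counting error only, and a difference between KO and control was not detectable for either gene at this depth. The other 6 members passed the minimum mean of 10 normalized counts and were fitted in all 3 tables.

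Markers of other cells were present at low levels. In control cells the 14 myeloid markers summed to between 21.3 and 41.7 RPM in the parenchyma and to at most 8.91 in the spleen. *Lyz2*, which encodes lysozyme, was the highest of them in the parenchyma (18.4 RPM), and the macrophage marker *Adgre1* was at 0 in every group. Of the 14, 13 had a read in the parenchyma controls, 6 of them in each of those libraries. In the spleen controls 9 (*Ets1* table) and 3 (*Grk2* table) had a read. The 9 neural markers were higher, at 50.1 to 64.0 RPM in the parenchyma controls, with *Mbp* the highest (51.5 RPM). *Mag*, *Aqp4* and *Syt1* were at 0 there. The neural markers summed to 17.8 to 26.4 RPM in the spleen controls of the *Ets1* table and 28.2 to 35.6 in those of the *Grk2* table. These sums were nearly all *Mbp*, which averaged 21.7 and 30.3 RPM. *Mog*, *Mag*, *Gfap*, *Aqp4*, *Snap25*, *Syt1* and *Rbfox3* were at 0 in both spleen control sets. The 4 erythroid markers found summed to at most 0.696 RPM in the parenchyma controls. In the spleen controls they summed to 23.1 to 48.3 (*Ets1* table) and 0.848 to 1.52 RPM (*Grk2* table). The part of other cells in the control levels was not tested. In such bulk samples a change in the RNA per cell and a change in the share of a cell type cannot be told apart.

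In the parenchyma, *Ctsb* was higher in *Ets1*-KO than in control cells. The control libraries had 474, 514 and 469 normalized counts of *Ctsb* and the *Ets1*-KO libraries 780, 995 and 886, in the order of replicate 1 to 3. Every KO library was above every control library. The means were 486 ± 25.0 and 887 ± 107 (SD, n = 3), which gave a log2 fold change of 0.86 (SE 0.08), and the differences within the numbered pairs were 0.72, 0.95 and 0.92 on the log2 scale. *Ctsb* was 1 of 366 of the 7002 genes tested (5.23%) that passed an adjusted p of 0.05 in limma, and 115 genes had a larger absolute change. It was the only member of the 6 fitted to pass, and it passed in 14 of 15 alternatives (0.82 to 0.93), all but the fit without a variance trend.

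The myeloid markers summed to between 36.8 and 50.4 RPM in these *Ets1*-KO libraries, against 21.3 to 41.7 in the controls, while *Ctsb* itself went from 342 ± 11.2 to 627 ± 70.5 RPM (SD, n = 3). The part of myeloid cells in the result was not tested. The 6 microglia markers summed to between 2.13 and 9.36 RPM in the KO and 2.67 and 5.57 in the control libraries. *Cx3cr1*, the highest of them, averaged 4.45 and 2.68 RPM, and *P2ry12*, *Siglech* and *Sall1* were at 0 in both groups.

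*Ctse*, an aspartic protease found in few tissues, had 18.7, 29.2 and 17.7 normalized counts in the control and 13.1, 12.1 and 15.9 in the *Ets1*-KO libraries of the parenchyma. All KO libraries were below all control libraries, but the difference of −0.61 (SE 0.32) did not pass. *Ctsb* and *Ctse* were thus 2 of 6 fitted members whose groups did not overlap, compared with 18.4% of all genes tested. *Ctsd* was at 407 ± 25.5 and 406 ± 18.7 normalized counts (SD, n = 3) with a fitted log2 difference of −0.00 (SE 0.09). The log2 fold changes of *Ctsc* (0.20, SE 0.22), *Ctss* (−0.20, SE 0.20) and *Ctsz* (−0.14, SE 0.30) were about as large as their errors or smaller, and their groups overlapped. The median over the 6 members was −0.07, beside −0.03 over all genes tested.

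Expressed as shares, which restate the values above because the members share 1 total, *Ctsb* held 47.3% ± 1.15 of the reads of the 8 members in control cells of the parenchyma and 62.5% ± 2.78 in *Ets1*-KO cells, while *Ctsd* held 39.6% ± 1.44 and 28.8% ± 2.95 (SD, n = 3). The 8 members together took 722 ± 22.3 and 1000 ± 68.4 RPM (SD, n = 3).

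**Figure D2:**
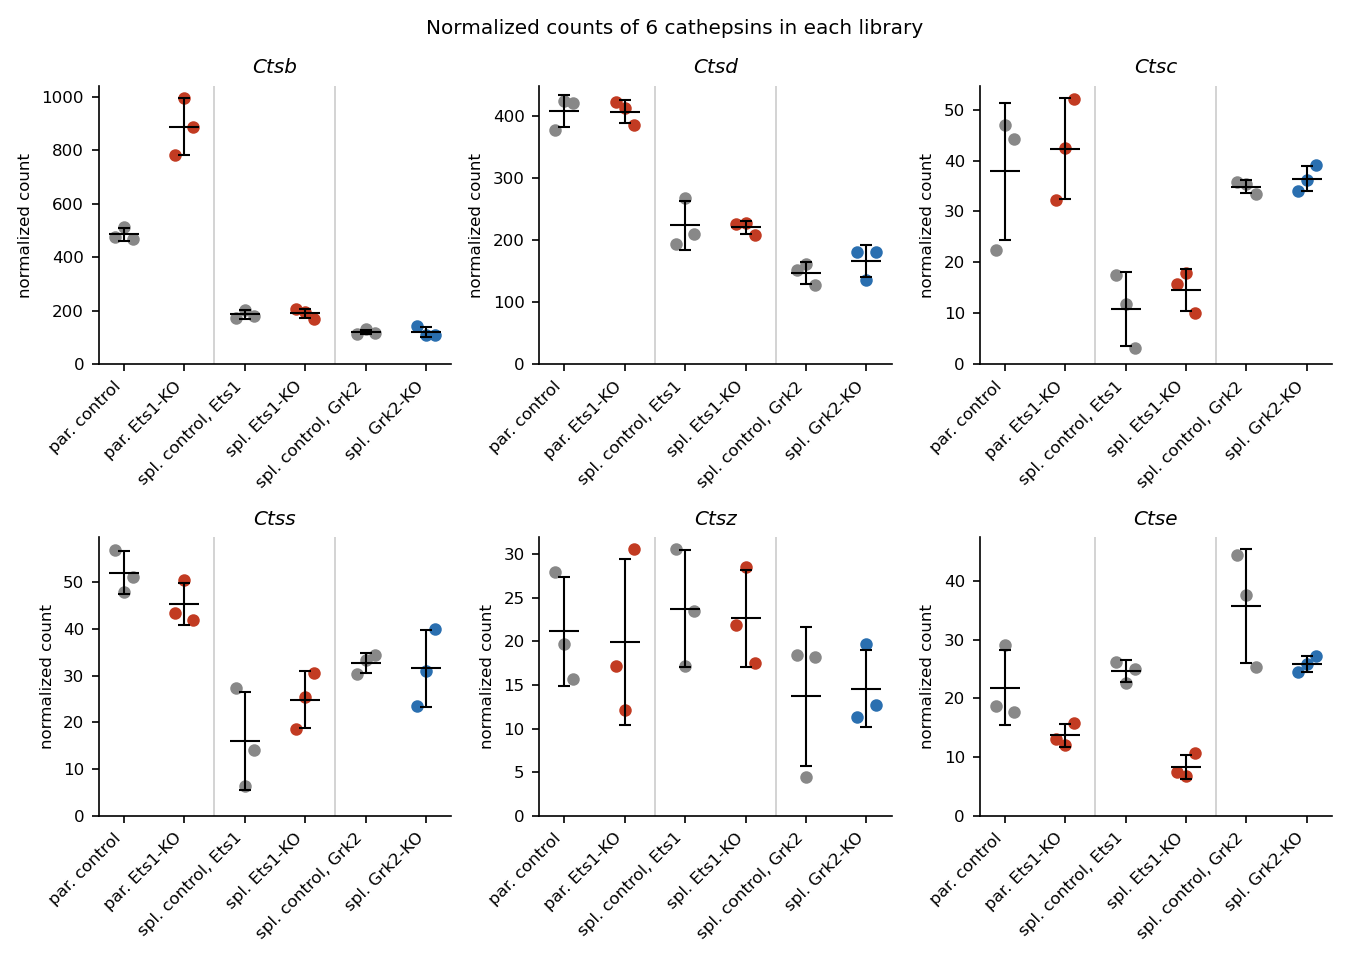
Normalized counts of 6 cathepsins in the 18 libraries, with 1 point per library, bars for mean ± SD of 3, and grey lines between the tables, which were scaled separately (par., parenchyma; spl., spleen). The *Ets1*-KO libraries of the parenchyma lie above their controls for *Ctsb*, and *Ets1*-KO libraries of both tissues lie below their controls for *Ctse*.

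In the spleen, *Ctse* was lower in *Ets1*-KO cells and *Ctsb* was not among the genes that passed. *Ctse* had 26.3, 22.6 and 25.1 normalized counts in the control and 7.5, 6.8 and 10.6 in the *Ets1*-KO libraries. Every KO library was below every control library. The means were 24.6 ± 1.87 and 8.32 ± 2.02 (SD, n = 3), which gave a log2 fold change of −1.48 (SE 0.36), from 16 to 24 reads per control and 11 to 17 reads per KO library. Only 10 genes had a larger absolute change. *Ctse* was 1 of 155 of 6979 genes (2.22%) that passed, and the only member of 6. It was also the only member whose groups did not overlap, against 16.9% of all genes tested.

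The call for *Ctse* held in 10 of 14 alternatives, and it was lost without replicate 1 (−1.38), without replicate 2 (−1.42), without the variance trend and in DESeq2 with the replicate block (−1.58). Without replicate 3, which holds the KO library that stood apart, the log2 fold change was −1.63 and passed. The 10 B cell markers summed to between 9.99 and 77.9 RPM in the control and 4.71 to 24.0 in the KO libraries, with *Ighm*, an immunoglobulin heavy chain, the highest, and *Cd79a*, *Cd79b*, *Pax5*, *Cd22* and *Fcrla* at 0 in both groups. Their part in the result was not tested, nor was that of the greater depth of the KO libraries.

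*Ctsb* had 172, 203 and 182 normalized counts in the control and 205, 195 and 170.5 in the *Ets1*-KO libraries of the spleen, a log2 fold change of 0.03 (SE 0.13), and the groups overlapped. *Ctsd* likewise overlapped, at 223 ± 38.8 and 220.1 ± 10.5 normalized counts (SD, n = 3; −0.01, SE 0.13). *Ctsc* (0.61, SE 0.42) and *Ctss* (0.78, SE 0.38) had larger fitted differences than *Ctsb*, but control libraries of *Ctss* spread from 6.5 to 27.3 normalized counts and the groups of both overlapped. Leaving out each replicate in turn moved *Ctss* between 0.26 (without replicate 2) and 1.45 (without replicate 1) and *Ctsc* between 0.21 (without replicate 3) and 0.99 (without replicate 1). *Ctsz* was at −0.06 (SE 0.31). The median over the 6 members was 0.01, beside 0.00 over all genes tested.

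The effect of *Ets1*-KO on *Ctsb* exceeded that in the spleen by 0.83 (SE 0.15) on the log2 scale when measured in the parenchyma, from the ratios within numbered pairs. *Ctsb* was 1 of 137 of 6520 genes (2.10%) that passed in this comparison, and the other 5 fitted members did not. That count rests on how the variance was modelled: it was 2, without *Ctsb*, when the variance had no trend and also when its trend followed the mean log2 ratio, the form used before the trend on mean expression was chosen. For the other members the difference was 0.87 (SE 0.47) for *Ctse*, −0.98 (SE 0.42) for *Ctss*, −0.41 (SE 0.44) for *Ctsc*, −0.08 (SE 0.46) for *Ctsz* and 0.01 (SE 0.16) for *Ctsd*.

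In *Grk2*-KO cells of the spleen 0 of the 6 fitted members passed in limma, edgeR or DESeq2. The 6 fitted members overlapped between groups without exception, where 1.56% of 6985 genes passed and 12.2% did not overlap. *Ctsb* had 113, 130 and 117 normalized counts in the control and 142, 108 and 109 in the *Grk2*-KO libraries, a log2 fold change of −0.01 (SE 0.12). *Ctse* was at 35.8 ± 9.71 and 25.9 ± 1.42 (SD, n = 3; −0.42, SE 0.24), with control libraries from 25.3 to 44.4. *Ctsd* (0.17, SE 0.11), *Ctsc* (0.06, SE 0.22), *Ctss* (−0.08, SE 0.23) and *Ctsz* (0.26, SE 0.36) complete the list, and *Ctsz* was at −0.57 without replicate 2. The median over the 6 members was 0.02, as over all genes tested.

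**Figure D3:**
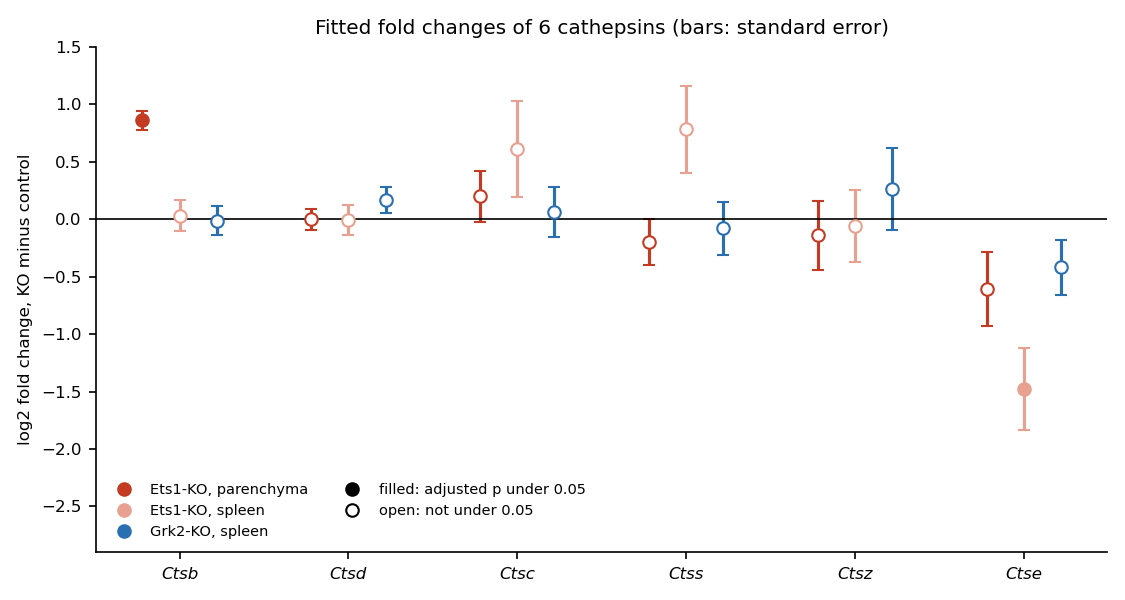
Fitted log2 fold changes (KO minus control) of 6 cathepsins with their standard errors in the 3 comparisons; filled points passed an adjusted p of 0.05 in limma. *Ctsb* in the parenchyma (0.86) and *Ctse* in the spleen (−1.48) are the filled points, both in *Ets1*-KO cells.

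Of the other 11 cathepsin genes listed, 10 were found in the tables and 3 could be fitted. *Ctsw*, which encodes a cathepsin of cytotoxic lymphocytes, fell in *Ets1*-KO cells of the parenchyma from 395 ± 10.6 to 261 ± 47.8 normalized counts (SD, n = 3; log2 fold change −0.61, SE 0.10, limma adjusted p = 8.9e-08). It was lower in all 3 pairs, opposite to *Ctsb* in the same cells. In the spleen *Ctsw* was at −0.34 (SE 0.12, limma adjusted p = 0.165) in *Ets1*-KO cells. It rose in *Grk2*-KO cells from 37.4 ± 1.82 to 61.7 ± 14.9 (SD, n = 3; 0.68, SE 0.19, limma adjusted p = 0.0376), a call that held in 4 of 13 alternatives. *Ctsa*, which encodes a carboxypeptidase that protects other hydrolases, and *Ctsf* did not pass in any comparison, with log2 fold changes from −0.12 to 0.10 and from −0.61 to 0.55. *Ctsk*, the collagenase of osteoclasts, stayed under the minimum, and the other 6 had no reads in any library.

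The cystatins bind cysteine cathepsins and block them. *Cst7*, which encodes cystatin F, an inhibitor that acts on cathepsin C inside cytotoxic cells, rose in *Ets1*-KO cells of the parenchyma from 57.0, 40.4 and 41.3 to 100.1, 106 and 90.7 normalized counts. All KO libraries were above all controls (log2 fold change 1.10, SE 0.17, limma adjusted p = 3.55e-08). It did not pass in the spleen with *Ets1*-KO (−0.24, SE 0.27) or *Grk2*-KO (−0.06, SE 0.20). *Cst3* and *Cstb*, the other cystatins that could be fitted, did not pass in any comparison.

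Among 16 fitted genes for the sorting and maturation of lysosomal proteases, 1 rose and 1 fell in *Ets1*-KO cells of the parenchyma. *Igf2r*, the cation-independent mannose 6-phosphate receptor, rose from 122 ± 20.2 to 193 ± 15.7 normalized counts (SD, n = 3; 0.66, SE 0.12, limma adjusted p = 1e-05). *Grn*, which encodes progranulin, a lysosomal glycoprotein, fell from 1101 ± 15.5 to 803 ± 110.3 (SD, n = 3; −0.46, SE 0.08, limma adjusted p = 3.13e-07). In the spleen 0 of 15 genes passed with *Ets1*-KO in limma (2 at an unadjusted p under 0.05) and 0 of 14 with *Grk2*-KO (1 unadjusted).

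Of 28 other lysosomal hydrolases fitted in the parenchyma, *Gusb*, the lysosomal beta-glucuronidase, rose (0.55, SE 0.17, limma adjusted p = 0.0216) and *Gm2a*, the activator of GM2 ganglioside breakdown (−0.50, SE 0.16, limma adjusted p = 0.0319), and *Dpp7*, a dipeptidyl peptidase (−0.58, SE 0.15, limma adjusted p = 0.00624), fell. These calls held in 8, 6 and 10 of 15 alternatives. Of 13 membrane proteins of the lysosome, *Lamp2* fell from 218 ± 30.3 to 151 ± 16.8 normalized counts (SD, n = 3; −0.52, SE 0.12, limma adjusted p = 4.95e-04), a call that held in 10 of 15 alternatives and was lost in DESeq2 with the replicate block. In the spleen limma called 0 of 29 hydrolases (2 at an unadjusted p under 0.05 in each comparison) and 0 of 13 membrane proteins (2 and 4 unadjusted). Of the 17 subunits of the proton pump that acidifies lysosomes, 0 passed in limma in any comparison (3, 4 and 3 at an unadjusted p under 0.05), and their medians were 0.16, 0.24 and 0.11 in the order parenchyma *Ets1*, spleen *Ets1* and spleen *Grk2*, beside −0.03, 0.00 and 0.02 over all genes. Of the 12, 12 and 11 fitted regulators of lysosomal genes, 0 passed in limma (0, 2 and 2 unadjusted). EdgeR and DESeq2 also called 0 wherever limma called 0 of these lists.

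*Gzma*, which encodes a serine protease of cytotoxic granules, rose in *Ets1*-KO cells of the parenchyma from 56.2 ± 9.32 to 108 ± 10.9 normalized counts (SD, n = 3; 0.94, SE 0.16, limma adjusted p = 7.82e-07), and it was at −0.45 (SE 0.37) in the spleen. *Cd8a*, a marker of CD8 T cells, was at 4.01 to 7.20 RPM in the *Ets1*-KO libraries of the parenchyma and 0 to 2.67 in their controls, and *Cd8b* was at 0 in both. The part of such cells in the values of *Gzma* and *Cst7* was not tested. Of 6 fitted genes of class II antigen processing, 1 fell with *Ets1*-KO in the parenchyma, 3 fell with *Ets1*-KO in the spleen and 4 fell with *Grk2*-KO in the spleen. DESeq2 with the replicate block called 0, 2 and 1 of them. *Cd74*, the invariant chain that cathepsin S cuts in antigen-presenting cells, fell in each of them, by 0.47 (SE 0.10), 0.72 (SE 0.13) and 0.89 (SE 0.11) on the log2 scale (limma adjusted p = 1.5e-04, 0.00328 and 1.87e-10). B cells express these genes too, and the B cell markers averaged 33.4 RPM in the control and 13.1 RPM in the *Ets1*-KO libraries of the spleen, with *Ighm* at 26.1 and 7.89 RPM. With *Grk2*-KO these markers summed to between 4.07 and 6.28 RPM, against 3.42 to 5.94 in the controls. The part of B cells in the class II values was not tested. For every gene of these lists that passed, the two-sided exact permutation test without pairing gave p = 0.1, except for *RT1-Bb* with *Grk2*-KO (p = 0.2). A p of 0.1 is the smallest that 3 unpaired libraries against 3 allow in this test. Without the variance trend 0 genes of these lists passed.

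**Figure D4:**
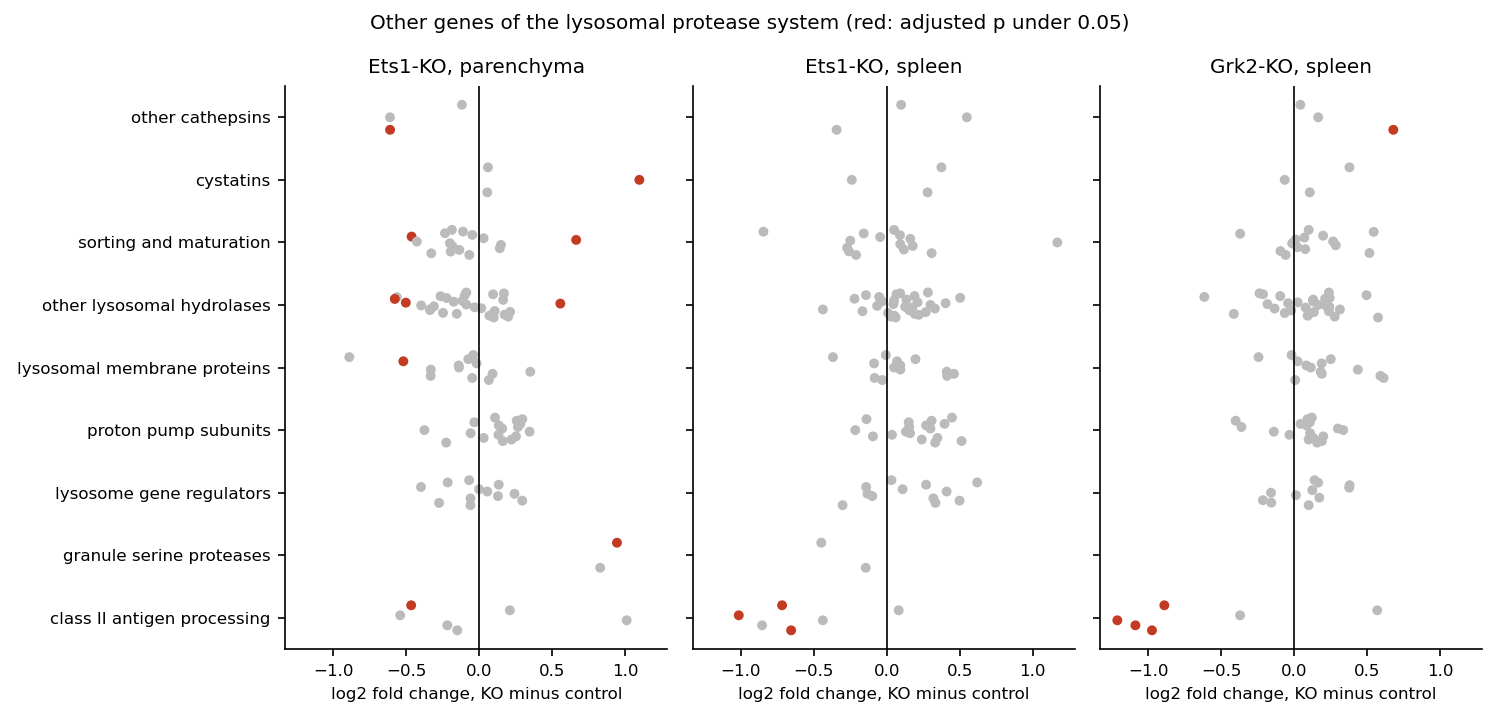
Fitted log2 fold changes (KO minus control) of other genes of the lysosomal protease system, by list, in the 3 comparisons, with 1 point per fitted gene and those with a limma adjusted p under 0.05 in red. In the parenchyma *Cst7* (1.10) and *Gzma* (0.94) lie farthest to the right among the red points, and the red points of the spleen panels are genes of class II antigen processing and, for *Grk2*-KO, *Ctsw*.

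The genes whose levels followed *Ctsb* most closely over the 18 libraries were *Sytl3*, *Tspan5* and *Prdx5*, with Pearson's r of 0.98, 0.97 and 0.97 on log2(RPM + 1) among 6206 genes. *Sytl3* encodes a synaptotagmin-like protein of vesicle transport, *Tspan5* a tetraspanin and *Prdx5* a peroxiredoxin. The 18 points share tissues, tables and depth, so these values describe the difference between parenchyma and spleen as much as that between KO and control. *Prdx5*, for example, was at 629 RPM in *Ets1*-KO and 342 in control cells of the parenchyma, and between 46.9 and 56.8 in the 4 spleen groups. Among the members *Ctsd* followed *Ctsb* most closely (r = 0.93, rank 30 of the 6206 genes). *Ctse* had a negative r of −0.46 at rank 4144, so that many other genes had a lower r.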

How the data were processed

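RNA of sorted rat TMBP cells was measured by bulk 3′ mRNA-seq in 18 libraries, grouped from the sample labels. According to the methods, the authors aligned untrimmed reads to Rnor_6.0 with STAR 2.7.2b and counted them per gene with HTSeq-count. The deposited values are a signal that the authors obtained by dividing each gene's reads by a DESeq2 size factor, in 3 tables scaled separately. The authors' tables of their own comparisons hold fold changes and p values and were not used, nor were 8 columns of human values per sample.

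All positive values (100%) were whole multiples of 1 step per library within a tolerance of 0.01, so reads were recovered. Genes whose normalized count averaged 10 or more entered a test on log2(normalized count + 1) by limma 3.58.1 (lmFit, eBayes with a variance trend), replicate number as a block, two-sided, with a Benjamini-Hochberg adjusted p of 0.05 as the threshold. With 2 residual degrees of freedom per gene, these tests lean on the trend. Its weight, in prior degrees of freedom, was infinite in the parenchyma, 22.0 in the spleen with *Ets1*-KO and 141 with *Grk2*-KO. In the parenchyma the SE and p of a gene thus came from the trend alone, without that gene's own spread between libraries. For the tissue comparison of pair ratios, the trend first followed the mean log2 ratio, which is limma's default for ratios, and gave 2 calls. It was changed to mean expression, on which the variance of counts depends, after that result and an earlier count of 137 were known, and the first form is kept as an alternative. Single genes were tested with exact permutation tests over 20 labellings (scipy 1.17.1), which did not use the numbered pairs. P values of the permutation tests rest on the spread of that gene between libraries. The paper states that all replicates are biological, and the technical part of the spread was not measured.

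The members and gene lists were chosen with earlier results of these data known. Named genes were the members, the fitted cathepsins, the genes of each list that passed (up to 4 per list and comparison), the edited genes, the 3 genes most like *Ctsb*, and the highest markers. Alternatives were no block, pseudocounts of 0.1 and 5, no minimum and a minimum of 50, quantile, upper quartile and TMM scaling, each replicate left out, no trend, edgeR 4.0.16 and DESeq2 1.42.0 on the recovered reads. The tests were also run on simulated counts with the same dispersion for every gene and no effect of replicate. The libraries here differ from that setting, so the run does not show how the tests perform on them.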

Additional observations from a re-analysis of the deposited data

Results flagged for a closer look

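The effect of *Ets1*-KO on *Ctsb* differed between tissues, and the value in the parenchyma was 0.83 (SE 0.15) above that of the spleen on the log2 scale by limma on the ratios within numbered pairs. The difference lay between 0.74 and 1.01 over 10 alternatives and passed in 8 of them. It did not pass without a variance trend or with the trend on the mean log2 ratio, the form used first. *Ctsb* was chosen with its values in both tissues known, so this is a description and no explanation was tested.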

How the results depend on the processing

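The calls rest on the variance trend. Without it 3 genes passed in the parenchyma (893 at an unadjusted p under 0.05), 0 in the spleen with *Ets1*-KO (785 unadjusted), 0 with *Grk2*-KO (571 unadjusted) and 2 in the comparison between tissues, and 0 members passed. With the trend on the mean log2 ratio, the form used first, 2 genes passed between tissues, and the trend on mean expression behind the 137 calls was chosen after seeing the data. In these settings *Ctsb* stayed at 0.86 in the parenchyma and 0.83 between tissues. The labels number the replicates without tying them to animals. Deviations of same-numbered libraries correlated between −0.019 and 0.314, and those of differently numbered libraries between −0.281 and 0.18. These ranges overlap, and the values are not independent because the deviations of a group sum to 0. With no replicate block 200 genes passed in the parenchyma, 71 in the spleen with *Ets1*-KO and 19 with *Grk2*-KO, and the calls of *Ctsb* and *Ctse* held. With no minimum 212 genes passed in the parenchyma and 242 in the spleen with *Ets1*-KO, and with a minimum of 50, which leaves out *Ctse*, 0 members passed in the spleen and 60 genes with *Grk2*-KO. With *Grk2*-KO, 59.6% of the calls were higher, but 45.3% with quantile normalization and 44.7% with upper quartile scaling. EdgeR called 238 genes in the spleen with *Ets1*-KO. DESeq2 called 86, 55 and 12 genes with the block and 124, 83 and 15 without it in the parenchyma, the spleen with *Ets1*-KO and with *Grk2*-KO, and with the block 0 members in the spleen with *Ets1*-KO. Leaving out each replicate gave 163 to 277, 3 to 232 and 6 to 50 genes in the same order, 28 to 112 between tissues, and 0 to 1 members in the spleen with *Ets1*-KO. The 3 came without replicate 1 and the 6 without replicate 2. The cause of these changes was not tested. The log2 fold changes of the fitted members gave 258 values under the alternatives, of which 253 kept their side of the threshold and 5 lost a call, those of *Ctsb* without the trend and of *Ctse* in 4 settings. No called value changed sign. Values that were not called did in 11 results. The largest such moves came without replicate 2, where *Ctsz* went from 0.26 to −0.57 with *Grk2*-KO and from −0.08 to 0.56 between tissues, and *Ctsd* in the parenchyma changed sign in 8 alternatives (0.02 to 0.06).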
